A study of Mus musculus with 18 samples.

Results

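The 10 genes described here encode amino acid transporters of the plasma membrane, measured as mRNA in mouse N2A neuroblastoma cells. They were taken by gene symbol from the 55414 genes of the count table, and all 10 were found: *Slc43a1*, *Slc43a2*, *Slc7a1*, *Slc7a6*, *Slc7a8*, *Slc1a4*, *Slc1a5*, *Slc38a1*, *Slc38a2* and *Slc6a9*. *Slc43a1* itself was chosen by its measured level, which was higher in both knockdowns (KD) than in the Scramble control, and the others were listed around it by name. The change of *Slc43a1* against Scramble is therefore a description with no test. Of the 10 genes, 9 had enough counts to be tested among 17901 genes, and *Slc7a8* did not.

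N2A (Neuro2A) is an established mouse cell line. Cells were transfected for 72 h with 1 of 6 siRNAs, namely 2 Scramble controls, 2 siRNAs against *Fmr1* (which encodes the RNA-binding protein FMRP) and 2 against *Zfp598* (which encodes an early factor of no-go mRNA decay, NGD). All groups therefore share the line, the transfection and the time, and differ in the siRNA. The siRNAs of a condition are called A and B, each with 3 libraries, so that Scramble KD, *Fmr1* KD and *Zfp598* KD have 6 libraries each and 18 in all. The letters are only names, and comparing siRNAs of the same letter across conditions is a convention used here. The comparisons address how mRNA levels change when FMRP or ZFP598 is depleted.

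Amino acids cross the plasma membrane through solute carriers that differ in what they carry and in what drives them. LAT3 (*Slc43a1*) and LAT4 (*Slc43a2*) let large neutral amino acids such as leucine pass down their gradient. y+LAT2 (*Slc7a6*) and LAT2 (*Slc7a8*) are exchangers that reach the membrane only with the heavy chain CD98 (*Slc3a2*), and CAT1 (*Slc7a1*) takes up arginine and lysine without it. ASCT1 (*Slc1a4*) and ASCT2 (*Slc1a5*) exchange small neutral amino acids and, for ASCT2, glutamine, in a sodium-dependent manner. SNAT1 (*Slc38a1*) and SNAT2 (*Slc38a2*) use the sodium gradient to concentrate glutamine, alanine and similar amino acids, and GLYT1 (*Slc6a9*) does so for glycine. Several of these genes, *Slc38a2* and *Slc7a1* among them, are textbook targets of ATF4, the transcription factor of the amino acid response. ATF4 binds composite sites read as TGATGNAA, and factors of the MYC and TFE families bind the E-box CACGTG.

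Promoter windows from RefSeq (build GRCm38.p6, 250 bases before to 50 after the transcript start) were given for 8 of the 10 genes, with 13 windows in all. *Slc1a5* and *Slc38a1* were the ones not matched. Both motifs were searched on both strands. Only 1 of the 13 windows held TGATGNAA, that of *Slc1a4*, and only 1 held CACGTG, that of *Slc43a1*. Over the 32851 windows of all genes, 3.97% held TGATGNAA and 7.15% held CACGTG. These windows are printed because they belong to the gene that names the group and to a gene that fell with both *Fmr1* siRNAs, and capitals mark the motif. The *Slc43a1* window is chr2:84840073-84840372 (GRCm38.p6, forward strand), with CACGTG at bases 187 to 192. The *Slc1a4* window is chr11:20332664-20332963 (GRCm38.p6, reverse strand), with the reverse complement of TGATGNAA at bases 247 to 254, across the transcript start. A match is a stretch of letters and not evidence of binding.
Slc43a1: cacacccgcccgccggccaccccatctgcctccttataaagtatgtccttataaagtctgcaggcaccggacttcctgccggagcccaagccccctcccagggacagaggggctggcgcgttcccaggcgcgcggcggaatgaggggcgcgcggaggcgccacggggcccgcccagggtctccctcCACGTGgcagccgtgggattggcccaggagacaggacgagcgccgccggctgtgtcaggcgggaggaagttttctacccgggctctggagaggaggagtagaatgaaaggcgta
Slc1a4: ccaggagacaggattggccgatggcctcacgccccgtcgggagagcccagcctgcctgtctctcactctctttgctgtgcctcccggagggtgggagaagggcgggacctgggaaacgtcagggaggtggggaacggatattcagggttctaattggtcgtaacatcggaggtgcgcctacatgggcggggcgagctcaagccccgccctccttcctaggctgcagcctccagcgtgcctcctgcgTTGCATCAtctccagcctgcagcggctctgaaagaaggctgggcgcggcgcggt

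Total counts per library ranged from 7674724 to 15414590, and levels are given as CPM, the counts divided by edgeR's TMM-scaled library size. The siRNA targets matched the labels: *Fmr1* stood at 22.4 ± 5.13 CPM (SD, n = 6) in its knockdown against 60.2 ± 6.51 CPM in the control, and *Zfp598* at 41.1 ± 5.40 CPM against 118.04 ± 9.49 CPM. *Fmr1* itself was at 18.2 CPM with *Fmr1* siRNA A and 26.5 CPM with B (log2 fold change B against A 0.55, adjusted p = 0.00227, edgeR). With *Zfp598* siRNA B, *Fmr1* was also below Scramble B (-0.33, adjusted p = 0.0360, edgeR). For *Zfp598* siRNA A against Scramble A it was 0.29 (adjusted p = 0.108, edgeR). Of 13 neuronal or neuroblastoma markers, 11 to 13 were detected in each library, with *Nefl* and *Nefm* at 6 counts or fewer. Library *Fmr1* B1 stood apart: all 9 embryonic stem cell markers were detected in it against 2 to 5 in the other libraries, with *Pou5f1* at 34 counts, *Zfp42* at 102 and *Dppa5a* at 52 where no other library had more than 1. *Lin28a*, the most counted marker of that list, was not highest there, with 1742 counts against up to 2730 in another library. *Dppa3* was detected there with only 2 counts. In libraries *Zfp598* A2 and A3 a single feature without annotation took 15.2% and 25.8% of the counts, against a median of 6.04% over all libraries. It was also uneven within Scramble A, the reference of the siRNA A comparisons, at 11.1% in A1, 5.00% in A2 and 8.83% in A3. Several of the main results that use *Fmr1* B1, *Zfp598* A2 or *Zfp598* A3 are also given without them, but not the *Slc43a1* values of *Zfp598* KD or the correlations. In bulk RNA, fewer cells with a transcript and less transcript per cell cannot be told apart.

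The 10 mRNAs spanned a wide range of abundance. Levels of different genes were compared as CPM per kilobase of exon, over the 6 Scramble KD libraries. *Slc1a5* stood at 65.2 ± 4.16 CPM per kilobase (SD, n = 6) and *Slc38a2* at 64.7 ± 1.71, and these did not differ beyond their spread. *Slc1a4* followed at 57.1 ± 6.51, and its range of libraries overlapped that of *Slc1a5*. Then came *Slc7a1* at 44.3 ± 3.94, *Slc38a1* at 28.2 ± 1.86 and *Slc7a6* at 22.6 ± 2.38. Far lower were *Slc6a9* at 6.07 ± 1.33 and *Slc43a2* at 1.21 ± 0.232 CPM per kilobase. *Slc43a1* was near the detection limit at 0.157 ± 0.0656, and *Slc7a8* was at 0 in every Scramble KD library. For scale, the light chain LAT1 (*Slc7a5*), the main leucine exchanger of dividing cells, stood at 262 ± 33.2 and its heavy chain *Slc3a2* at 95.6 ± 11.3 CPM per kilobase. In these cells *Slc43a1* was thus a scarce mRNA among abundant carriers.

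**Figure D1:**
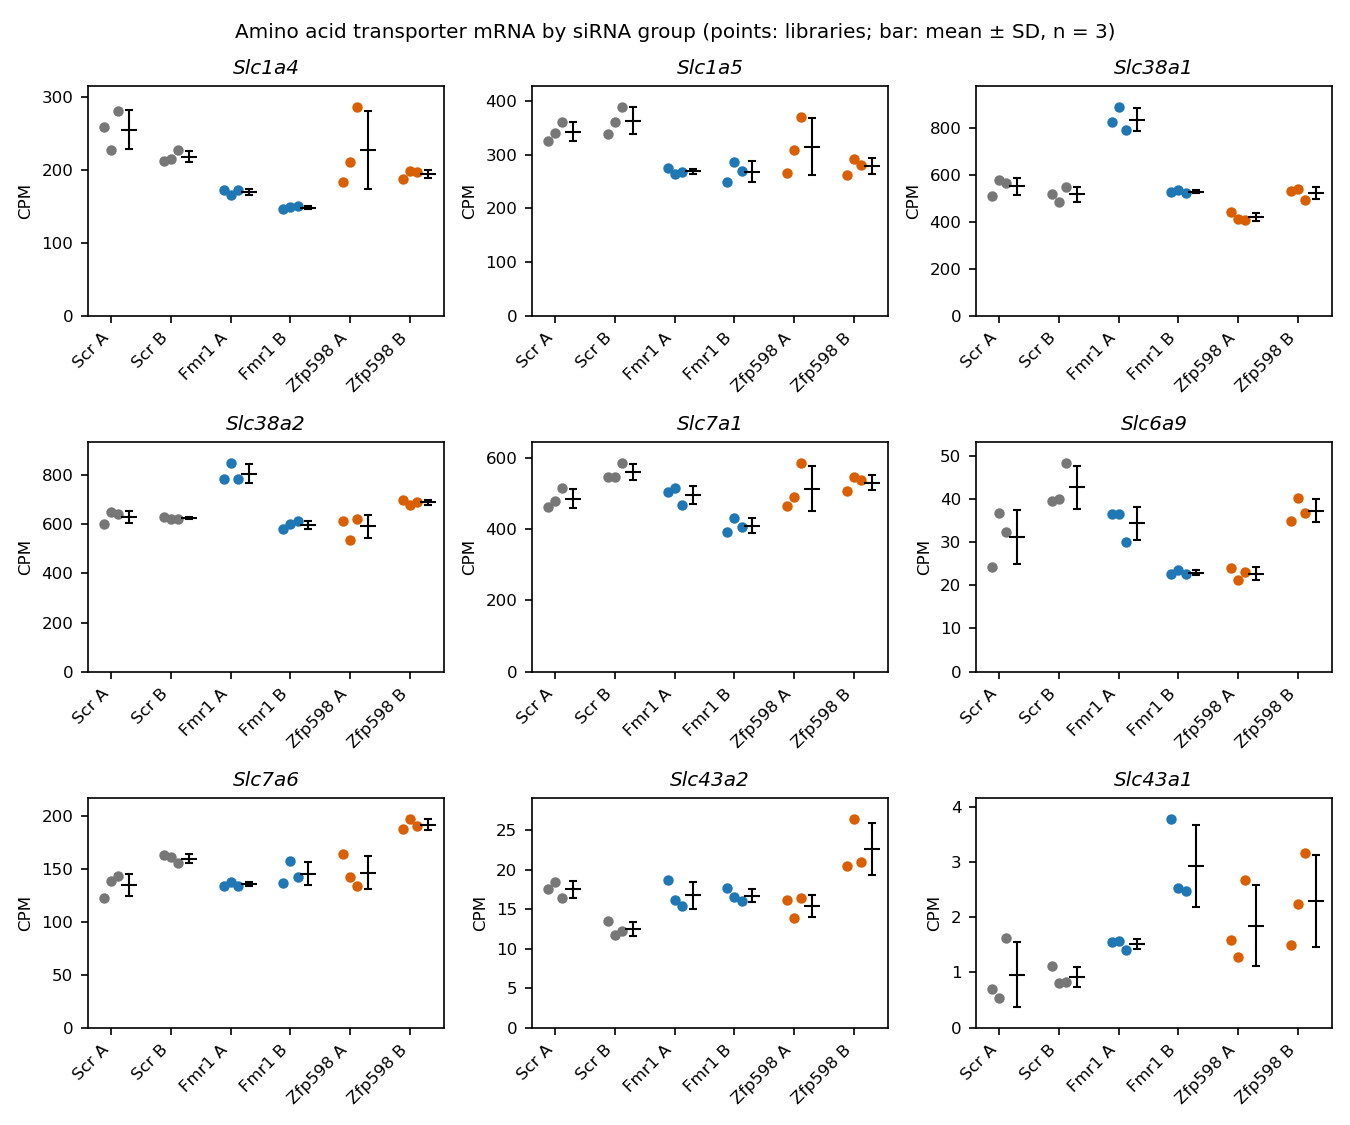
Level of the 9 tested transporter mRNAs in each of the 18 libraries, in CPM (linear axis from 0), by siRNA group (Scr, Scramble). Points are libraries, and the mark beside them is the mean with its SD (n = 3). *Slc1a4* and *Slc1a5* are lower with both *Fmr1* siRNAs, *Slc38a1* and *Slc38a2* are highest with *Fmr1* siRNA A alone, and *Slc43a2* is highest with *Zfp598* siRNA B.

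*Slc43a1* (ENSMUSG00000027075, chr2:84669194-84698315 of GRCm39, forward strand) had between 8 and 56 counts per library. In raw counts the Scramble A libraries had 8, 8 and 23 and the Scramble B libraries 17, 11 and 13. With *Fmr1* siRNA A the counts were 23, 23 and 19, and with *Fmr1* siRNA B they were 56, 36 and 36. With *Zfp598* siRNA A they were 21, 12 and 15, and with *Zfp598* siRNA B 20, 28 and 37. After scaling, every siRNA B library of either knockdown was above all Scramble B libraries, while the siRNA A libraries overlapped the Scramble A libraries through Scramble A3. Libraries that did not overlap Scramble B, in either direction, were seen for 44.2% of all tested genes with *Fmr1* B and 47.1% with *Zfp598* B. The mean of 0.936 ± 0.390 CPM (SD, n = 6) for Scramble compares with 2.22 ± 0.907 CPM after *Fmr1* KD and 2.07 ± 0.743 CPM after *Zfp598* KD, which corresponds to log2 fold changes of 1.23 (SE 0.310) and 1.12 (SE 0.320). These values chose the gene and are not tested here.

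By siRNA, the log2 fold change of *Slc43a1* was 0.65 (SE 0.399) for *Fmr1* A, 1.66 (SE 0.370) for *Fmr1* B, 0.86 (SE 0.418) for *Zfp598* A and 1.30 (SE 0.384) for *Zfp598* B, each against the Scramble siRNA of the same letter. At these counts single libraries moved the values. Without Scramble A3 the *Fmr1* A and *Zfp598* A values became 1.30 and 1.503. Without *Fmr1* B1, the library with stem cell markers and the most *Slc43a1* counts, the *Fmr1* B value became 1.44 and the pooled *Fmr1* KD value 1.02. The part of the stem cell markers in this was not tested. Comparisons that did not choose the gene could be tested. The Scramble siRNAs did not separate *Slc43a1* (log2 fold change B against A -0.06, SE 0.424, adjusted p = 0.939, edgeR), with a 95% interval of -0.95 to 0.82. *Fmr1* siRNA B was above siRNA A in all libraries, 0.95 on the log2 scale (SE 0.348), but missed the threshold (adjusted p = 0.0523, edgeR). It passed with the replicate number as a block (0.95, adjusted p = 0.0460, edgeR) and with no filter on low counts (adjusted p = 0.0404, edgeR), and without *Fmr1* B1 the value was 0.73 (adjusted p = 0.214, edgeR). The difference between the effects of *Fmr1* siRNAs B and A was 1.01 (SE 0.551, adjusted p = 0.214, edgeR) and that for *Zfp598* 0.44 (SE 0.571, adjusted p = 0.638, edgeR), with intervals of -0.14 to 2.16 and -0.75 to 1.63.

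**Figure D2:**
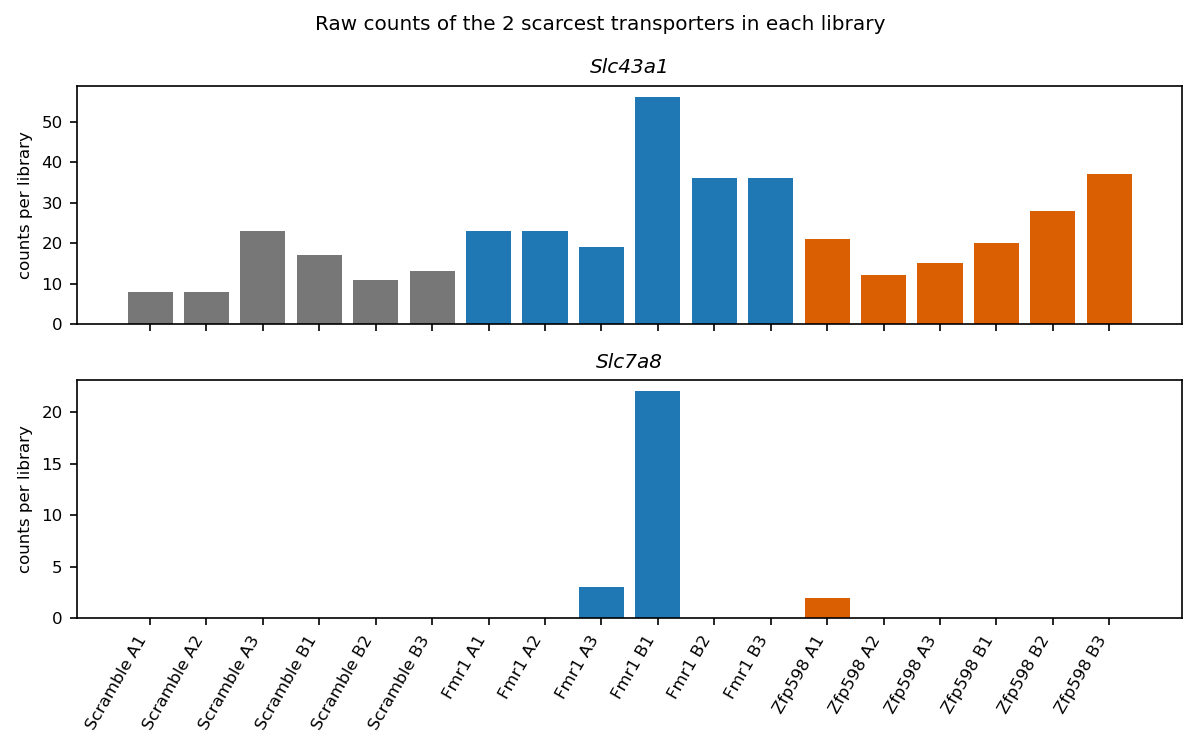
Raw counts (not scaled for library size) of *Slc43a1* and *Slc7a8* in each of the 18 libraries, with Scramble KD in grey, *Fmr1* KD in blue and *Zfp598* KD in orange. *Slc43a1* lies between 8 and 56 counts, and *Slc7a8* has 22 counts in *Fmr1* B1 and at most 3 in any other library.

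The genes whose levels followed *Slc43a1* most closely were sought among 12110 genes with a mean of at least 50 counts, by Pearson's r of log2 CPM over the 18 libraries, which share the siRNA groups and hence the group differences. The highest were *Oat* (r = 0.837), *Zc3hav1l* (0.829), *Aldh2* (0.829), *Fzr1* (0.815) and *Fbn1* (0.813). *Oat* encodes ornithine aminotransferase, *Aldh2* a mitochondrial aldehyde dehydrogenase, *Fzr1* an activator of the anaphase-promoting complex and *Fbn1* the matrix protein fibrillin-1. *Oat* had group means of 36.0 and 38.7 CPM with Scramble siRNAs A and B, 39.8 and 58.7 CPM with *Fmr1* A and B, and 44.7 and 49.9 CPM with *Zfp598* A and B. *Fbn1* had 14.5, 9.07, 24.4, 45.05, 20.4 and 31.8 CPM in the same order. These likenesses are a description over 18 libraries and were not tested.

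The other member of the family, *Slc43a2* (ENSMUSG00000038178, chr11:75421362-75477630, forward strand), was counted about an order of magnitude more often, and its levels depended on the siRNA. It had 17.6, 18.5 and 16.4 CPM with Scramble A, 13.5, 11.7 and 12.2 CPM with Scramble B, and 20.5, 26.5 and 21.04 CPM with *Zfp598* B. The 3 *Zfp598* B libraries were above all others, and the 3 Scramble B libraries were below all others. *Zfp598* siRNA B raised *Slc43a2* over Scramble B by 0.86 on the log2 scale (SE 0.121, adjusted p = 2.74e-05, edgeR), whereas with *Zfp598* siRNA A it was -0.18 (SE 0.126, adjusted p = 0.378, edgeR) against Scramble A. The difference between these effects was itself 1.04 (SE 0.174, adjusted p = 2.24e-04, edgeR), and 0.98 without *Zfp598* A2 and 1.09 without *Zfp598* A3 (adjusted p = 0.00111 and 2.11e-04, edgeR). The Scramble siRNAs contributed to it, with *Slc43a2* lower by 0.49 with B (log2 fold change -0.49, adjusted p = 0.00658, edgeR). Against all 6 Scramble libraries the *Zfp598* B value was 0.61 (adjusted p = 1.29e-04, edgeR).

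With *Fmr1* siRNA B, *Slc43a2* was at 17.7, 16.5 and 16.0 CPM, a log2 fold change of 0.42 over Scramble B (SE 0.122, adjusted p = 0.0158, edgeR). Of these levels 2 lay within the range of Scramble A and the third just below it, and against all 6 Scramble libraries the value was 0.18 (adjusted p = 0.255, edgeR). Without *Fmr1* B1 it was 0.39 (adjusted p = 0.0569, edgeR). *Fmr1* siRNA A gave -0.06 (adjusted p = 0.763, edgeR). The effects of the *Fmr1* siRNAs differed by 0.48 (adjusted p = 0.0481, edgeR), a call lost without *Fmr1* B1 (0.45, adjusted p = 0.0940, edgeR). Exons of *Slc43a2* share 2212 bp with the opposite-strand lncRNA *Gm45606*, and the strand setting of the counting is not given in the sources used here. The third gene of the family, *Slc43a3*, had at most 7 counts in any library.

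*Slc1a4* (ENSMUSG00000020142, chr11:20252180-20282774, reverse strand) was lower with both *Fmr1* siRNAs. It had 258, 227 and 280.5 CPM with Scramble A and 212, 215 and 227 CPM with Scramble B. With *Fmr1* A it had 172, 165 and 172 CPM, and with *Fmr1* B 146, 149 and 149.6 CPM. Every *Fmr1* KD library lay under the lowest Scramble library, a pattern that 3.51% of tested genes showed in this direction. The pooled log2 fold change was -0.57 (SE 0.106, adjusted p = 0.00255, edgeR). The siRNAs gave -0.59 (SE 0.113, adjusted p = 6.43e-04, edgeR) for A and -0.56 (SE 0.113, adjusted p = 0.00110, edgeR) for B, and the difference between these effects was 0.03 with a 95% interval of -0.30 to 0.36.

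*Slc1a5* (ENSMUSG00000001918, chr7:16515265-16532731, forward strand), the glutamine exchanger of the same family, did likewise. Its levels were 326, 341 and 362 CPM with Scramble A and 339.6, 362 and 389.8 CPM with Scramble B, against 275, 265 and 268 CPM with *Fmr1* A and 249, 287 and 269 CPM with *Fmr1* B. Again no *Fmr1* KD library reached a Scramble KD library. The pooled log2 fold change was -0.39 (SE 0.0858, adjusted p = 0.00860, edgeR), with -0.35 (adjusted p = 0.0125, edgeR) for siRNA A and -0.44 (adjusted p = 0.00251, edgeR) for siRNA B. Without *Fmr1* B1 the pooled values were -0.55 for *Slc1a4* and -0.37 for *Slc1a5* (adjusted p = 0.00806 and 0.0230, edgeR). The siRNA A call of *Slc1a5* was lost without Scramble A3 (-0.31, adjusted p = 0.0607, edgeR). Summing the 3 libraries of each siRNA, which leaves 2 values for each condition, gave -0.58 and -0.41, and neither passed (adjusted p = 0.999 for each, edgeR).

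In *Zfp598* KD only *Slc1a5* passed, and only with siRNA B. *Slc1a5* had 262, 292 and 282 CPM with *Zfp598* B, all below Scramble B, and fell by 0.38 on the log2 scale (SE 0.0977, adjusted p = 0.00603, edgeR). *Slc1a4* had 188, 198 and 197 CPM there, a log2 fold change of -0.16 that did not pass (SE 0.113, adjusted p = 0.309, edgeR). With *Zfp598* A the libraries spread widely, at 183, 211 and 286 CPM for *Slc1a4* and 267, 309 and 371 CPM for *Slc1a5*. The highest value of each was in *Zfp598* A3, the library with the fewest counts and the largest share of the unannotated feature. The *Zfp598* A log2 fold changes were -0.18 for *Slc1a4* and -0.12 for *Slc1a5* (adjusted p = 0.342 and 0.456, edgeR), and without *Zfp598* A3 they were -0.38 (adjusted p = 0.00881, edgeR) and -0.26 (adjusted p = 0.0774, edgeR). The pooled *Zfp598* KD value of *Slc1a5* went from -0.25 (adjusted p = 0.123, edgeR) to -0.32 (adjusted p = 0.0304, edgeR) without that library. Over the 18 libraries *Slc1a4* and *Slc1a5* had a Pearson's r of 0.833, and 0.837 after the group means were removed, which includes the joint deviation of *Zfp598* A3.

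*Slc38a1* (ENSMUSG00000023169, chr15:96469298-96541851, reverse strand) and *Slc38a2* (ENSMUSG00000022462, chr15:96585266-96597894, reverse strand) are neighbours, with 43414 bp between them. *Slc38a1* rose with *Fmr1* siRNA A, from 510, 576 and 567 CPM with Scramble A to 825, 889 and 791 CPM, a log2 fold change of 0.60 (SE 0.0765, adjusted p = 7.70e-06, edgeR). *Slc38a2* went from 601, 649 and 641 CPM to 785, 851 and 785 CPM, a log2 fold change of 0.36 (SE 0.0729, adjusted p = 0.00114, edgeR). For both genes the 3 *Fmr1* A libraries were above the other 15.

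*Fmr1* siRNA B did not move either gene past the threshold. *Slc38a1* had 526, 534 and 522 CPM and a log2 fold change of 0.03 over Scramble B, and *Slc38a2* had 581, 600 and 613 CPM and a value of -0.06 (adjusted p = 0.812 and 0.576, edgeR). The effects of siRNAs B and A differed by -0.57 for *Slc38a1* (SE 0.108, adjusted p = 6.48e-04, edgeR) and by -0.42 for *Slc38a2* (SE 0.103, adjusted p = 0.00530, edgeR). Without *Fmr1* B1 these were -0.56 and -0.39 (adjusted p = 0.00213 and 0.0168, edgeR). Pooled over both siRNAs, *Fmr1* KD gave 0.35 and 0.16 (adjusted p = 0.116 and 0.371, edgeR), values that average unlike effects.

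With *Zfp598* siRNA A, *Slc38a1* was at 440, 411 and 408 CPM, below the other 15 libraries, and fell by 0.39 on the log2 scale (SE 0.0768, adjusted p = 0.00223, edgeR). Without *Zfp598* A2 the value was -0.38 (adjusted p = 0.0141, edgeR), and without *Zfp598* A3 it was also -0.38 (adjusted p = 0.00628, edgeR). *Slc38a2* was at 616, 538 and 622 CPM in the same libraries, a log2 fold change of -0.09 (adjusted p = 0.457, edgeR). *Zfp598* siRNA B gave 0.01 for *Slc38a1* and 0.14 for *Slc38a2* (adjusted p = 0.915 and 0.163, edgeR). The effects of *Zfp598* siRNAs B and A differed for *Slc38a1*, by 0.41 (SE 0.108, adjusted p = 0.0101, edgeR), and by 0.40 without *Zfp598* A2 or A3 (adjusted p = 0.0221 and 0.0122, edgeR). Pearson's r between the neighbours was 0.862 over the 18 libraries and 0.468 with the group means removed. *Slc38a1* shares 1199 and 1235 bp of exon with the opposite-strand lncRNAs *Gm56719* and *Gm56740*. Shorter stretches are shared with opposite-strand lncRNAs by *Slc38a2* (205 bp, *Gm62499*), *Slc1a4* (305 bp, *Gm72467*) and *Slc7a1* (106 bp, *Gm57292*).

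*Slc7a1* (ENSMUSG00000041313, chr5:148264220-148336848, reverse strand), the arginine carrier, was lower with *Fmr1* siRNA B. Its levels were 546.1, 546.0 and 585 CPM with Scramble B and 391, 431 and 406 CPM with *Fmr1* B, which were the 3 lowest of the 18 libraries. The log2 fold change was -0.45 (SE 0.0848, adjusted p = 5.80e-04, edgeR), and without *Fmr1* B1 it was -0.41 (adjusted p = 0.00576, edgeR). With *Fmr1* A it was 0.03 (adjusted p = 0.843, edgeR), and the difference between the effects was -0.48 (SE 0.120, adjusted p = 0.00599, edgeR), or -0.44 without *Fmr1* B1 (adjusted p = 0.0208, edgeR). Neither *Zfp598* siRNA passed, with 0.08 for A and -0.08 for B (adjusted p = 0.590 and 0.547, edgeR).

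*Slc6a9* (ENSMUSG00000028542, chr4:117691703-117732395, forward strand) fell further with *Fmr1* siRNA B than any other of the 9 tested genes. It had 39.5, 40.1 and 48.3 CPM with Scramble B and 22.6, 23.6 and 22.5 CPM with *Fmr1* B, a log2 fold change of -0.90 (SE 0.128, adjusted p = 3.39e-05, edgeR). The groups did not overlap, and without *Fmr1* B1 the value was -0.88 (adjusted p = 4.01e-04, edgeR). *Fmr1* A libraries, at 36.5, 36.5 and 29.97 CPM, overlapped Scramble A at 24.3, 36.8 and 32.4 CPM (log2 fold change 0.14, adjusted p = 0.492, edgeR). The effects of the *Fmr1* siRNAs differed by -1.03 (SE 0.180, adjusted p = 2.78e-04, edgeR), or -1.01 without *Fmr1* B1 (adjusted p = 0.00114, edgeR). Part of that difference lies between the Scramble siRNAs, where B was higher by 0.45 (adjusted p = 0.0137, edgeR). Against all 6 Scramble libraries the *Fmr1* B value was -0.67 (adjusted p = 2.61e-04, edgeR). *Zfp598* siRNA A, at 23.98, 21.1 and 22.9 CPM, gave -0.46 (SE 0.134, adjusted p = 0.0286, edgeR), a call lost when any 1 of 4 libraries was left out, namely Scramble A2 (-0.33), Scramble A3 (-0.44), *Zfp598* A2 (-0.41) or *Zfp598* A3 (-0.47). Exons of *Slc6a9* share 1429 bp with *Ccdc24* and 551 bp with *B4galt2* on the opposite strand, so its counts are uncertain.

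*Slc7a6* (ENSMUSG00000031904, chr8:106895139-106925346, forward strand) had the smallest pooled log2 fold change of the 8 in *Fmr1* KD (-0.07, adjusted p = 0.756, edgeR). It had 134, 138 and 134 CPM with *Fmr1* A and 137, 157 and 142 CPM with *Fmr1* B, and the log2 fold changes of 0.01 and -0.13 did not pass (adjusted p = 0.970 and 0.271, edgeR). With *Zfp598* B it had 187, 197 and 191 CPM, the 3 highest of the 18 libraries, against 163, 161 and 155 CPM with Scramble B. That is a log2 fold change of 0.26 (SE 0.0828, adjusted p = 0.0222, edgeR), lost without Scramble B2 (0.27), Scramble B3 (0.25), *Zfp598* B2 (0.26) or *Zfp598* B3 (0.27), where the adjusted p reached 0.0652 (edgeR). Against all 6 Scramble libraries the value was 0.39 (adjusted p = 3.33e-04, edgeR).

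*Slc7a8* (ENSMUSG00000022180, chr14:54959630-55019649, reverse strand) had 0 counts in 15 of the 18 libraries, and a count of 0 in the Scramble KD libraries allows up to 0.192 to 0.264 CPM (3 counts per library, counting error only). The exceptions were 22 counts in *Fmr1* B1, 3 in *Fmr1* A3 and 2 in *Zfp598* A1. *Fmr1* B1 is the library with stem cell markers, and its *Fmr1* siRNA B partners B2 and B3 both had 0. The same library held the highest counts of *Slc38a4* (94), *Slc7a4* (23) and *Slc6a7* (23), other transporter genes that were too rarely counted to be tested. Whether the source of the stem cell markers also supplied these counts was not tested.

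Counted together in *Fmr1* KD against Scramble, 2 of the 8 tested transporters other than *Slc43a1* passed and both fell, beside 6.54% of all tested genes in either direction, 2.73% that rose and 3.80% that fell. Their median log2 fold change was -0.14, against 0.0025 over all 17901 genes. In *Zfp598* KD 0 of the 8 passed with edgeR, beside 1.96% of all genes (0.916% higher and 1.04% lower). At an unadjusted p under 0.05 there were 2, *Slc43a2* (0.35, adjusted p = 0.213, edgeR) and *Slc1a5* (-0.25), and DESeq2 passed 0 of the 8. Without *Fmr1* B1 and *Zfp598* A2 and A3, *Slc1a5* (-0.36, adjusted p = 0.0115, edgeR) and *Slc7a6* (0.33, adjusted p = 0.0388, edgeR) passed in *Zfp598* KD. That fit keeps 1 *Zfp598* A library beside the 3 of siRNA B.

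The siRNAs of one target gave more calls each, and the background was higher too. *Fmr1* siRNA A moved 4 of the 8 (23.6% of all genes, 10.0% higher and 13.6% lower), with *Slc38a1* and *Slc38a2* up and *Slc1a4* and *Slc1a5* down. *Fmr1* siRNA B moved 5 of the 8 (22.7% of all genes, 11.3% in each direction), with *Slc43a2* up and *Slc7a1*, *Slc1a4*, *Slc1a5* and *Slc6a9* down. For *Zfp598* the counts were 2 of 8 with siRNA A (11.9% of all genes, 6.30% higher and 5.64% lower), *Slc38a1* and *Slc6a9*, both down, and 3 of 8 with siRNA B (26.8% of all genes, 12.4% higher and 14.4% lower), *Slc43a2* and *Slc7a6* up and *Slc1a5* down. The 2 Scramble siRNAs also differed from each other at 3 of the 8 (22.7% of all genes), *Slc43a2*, *Slc7a6* and *Slc6a9*. Changes that *Fmr1* siRNAs A and B shared were therefore those of *Slc1a4* and *Slc1a5*. None of the 8 passed with both *Zfp598* siRNAs. All of these comparisons share Scramble libraries with others.

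Between *Fmr1* siRNAs B and A, 4 of the 8 differed (24.3% of all genes), namely *Slc7a1*, *Slc38a1*, *Slc38a2* and *Slc6a9*, all lower with B, of which *Slc7a1* was lost without *Fmr1* B1 (-0.24, adjusted p = 0.0968, edgeR). Between *Zfp598* siRNAs B and A, 5 of the 8 differed (35.3% of all genes), namely *Slc43a2*, *Slc7a6*, *Slc38a1*, *Slc38a2* and *Slc6a9*, all higher with B, of which *Slc38a2* was lost without *Zfp598* A2 (0.17, adjusted p = 0.113, edgeR). The effects of the *Fmr1* siRNAs over Scramble differed for 5 of the 8 (21.8% of all genes) and those of the *Zfp598* siRNAs for 2 of the 8 (21.9% of all genes). Libraries of the compared groups did not overlap for 2 of the 8 in *Fmr1* KD (5.98% of all genes) and 0 of the 8 in *Zfp598* KD (1.87%). By siRNA this held for 4 of the 8 with *Fmr1* A (39.0%), 6 with *Fmr1* B (44.2%), 3 with *Zfp598* A (21.0%) and 6 with *Zfp598* B (47.1%).

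**Figure D3:**
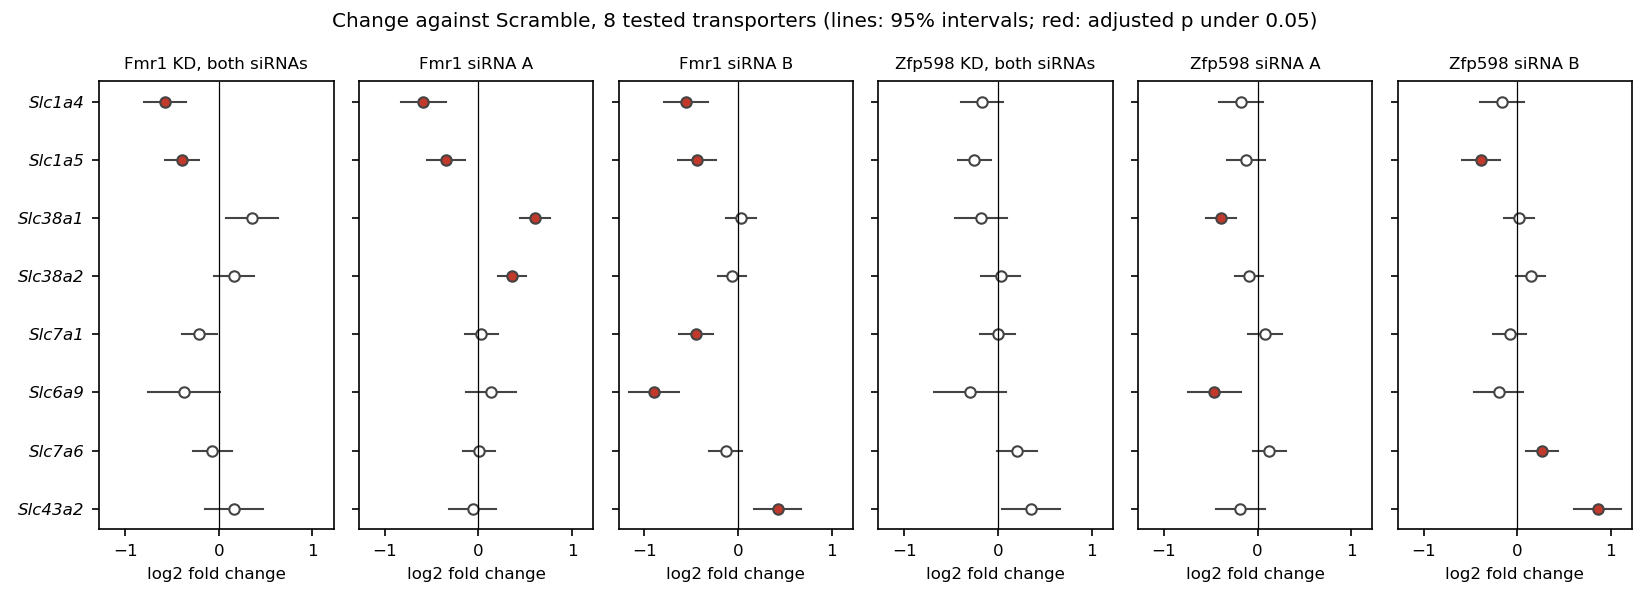
Log2 fold change against Scramble of the 8 tested transporters other than *Slc43a1*, for both siRNAs pooled and for each siRNA against the Scramble siRNA of the same letter. Points are edgeR estimates, lines their 95% intervals, and red points have an adjusted p under 0.05. *Slc1a4* and *Slc1a5* are red in all 3 *Fmr1* panels, while *Slc38a1*, *Slc38a2*, *Slc7a1* and *Slc6a9* are red with 1 *Fmr1* siRNA each.

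A wider list held 51 other amino acid transporter genes, of which 24 were tested. In *Fmr1* KD against Scramble 1 rose and 0 fell, beside 2.73% and 3.80% of all genes, and the median log2 fold change was -0.03. The 1 gene was *Slc7a11*, the cystine-glutamate exchanger xCT, at 127 ± 86.7 CPM (SD, n = 6) after *Fmr1* KD (log2 fold change 1.70, SE 0.369, adjusted p = 0.00829, edgeR). The spread came from the siRNAs: *Slc7a11* had 219, 228 and 163 CPM with *Fmr1* A against 33.6, 45.6 and 40.6 CPM with Scramble A, and only 51.9, 50.3 and 49.8 CPM with *Fmr1* B. Its log2 fold change was 2.34 (SE 0.122, adjusted p = 1.79e-10, edgeR) with siRNA A and 0.41 (SE 0.120, adjusted p = 0.0165, edgeR) with siRNA B, a difference of -1.93 (SE 0.169, adjusted p = 1.16e-07, edgeR). Without *Fmr1* B1 the pooled value was 1.87 and the siRNA B value 0.40 (adjusted p = 0.00464 and 0.0479, edgeR). *Slc38a1* and *Slc38a2* were highest in the same *Fmr1* A libraries.

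By siRNA, *Fmr1* A raised 3 of the 24 and lowered 7, beside 10.0% and 13.6% of all genes, with *Slc38a3* at -2.29 and *Slc38a5* at -2.04 on the log2 scale (adjusted p = 5.47e-06 and 0.00273, edgeR), both carriers of glutamine. Both mRNAs were scarce, with means of 35.8 and 11.2 counts per library. From Scramble A to *Fmr1* A, *Slc38a3* went from 3.66 to 0.743 CPM and *Slc38a5* from 1.40 to 0.326 CPM. *Fmr1* B raised 6 and lowered 4, beside 11.3% of all genes in each direction, and 8 passed without *Fmr1* B1. Among those that fell were the subunits of the leucine exchanger, *Slc7a5* from 1057, 1075 and 1183 CPM to 613, 669 and 626 CPM (log2 fold change -0.80, SE 0.0851, adjusted p = 1.12e-06, edgeR), and its partner *Slc3a2* (-0.44, SE 0.122, adjusted p = 0.0116, edgeR). Without *Fmr1* B1 these were -0.76 (adjusted p = 2.36e-05, edgeR) and -0.37, which did not pass (adjusted p = 0.0733, edgeR). *Slc7a5* was also higher with Scramble B than with Scramble A (0.29, adjusted p = 0.0179, edgeR). The taurine carrier *Slc6a6* rose by 1.01 (adjusted p = 2.82e-07, edgeR), with means of 295 CPM for *Fmr1* B and 147 CPM for Scramble B. Without *Fmr1* B1 its value was 1.03 (adjusted p = 2.24e-06, edgeR). Scramble B was itself below Scramble A, at 236 CPM, by -0.69 on the log2 scale (adjusted p = 3.07e-05, edgeR). In *Zfp598* KD 0 rose and 1 fell (0.916% and 1.04% of all genes), *Slc38a7* (-0.35, adjusted p = 0.0394, edgeR), a call lost with no filter, with the replicate block, with summed counts and without any 1 Scramble or *Zfp598* B library. *Zfp598* A raised 1 and lowered 6, beside 6.30% and 5.64% of all genes. *Zfp598* B raised 6 and lowered 3, beside 12.4% and 14.4% of all genes, among them *Slc7a11* (0.75, adjusted p = 9.59e-05, edgeR) up and *Slc38a3* (-1.60, adjusted p = 2.13e-04, edgeR) and *Slc7a5* (-0.40, adjusted p = 0.00134, edgeR) down.

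Of 37 amino acid response genes, which include ATF4, its partners, amino acid synthesis enzymes and aminoacyl-tRNA synthetases, 35 were tested. *Fmr1* siRNA B lowered 30 of the 35 and raised 0, beside 11.3% of all genes in each direction, with a median log2 fold change of -0.56 against 0.0009 over all genes, and *Ddit3* and *Trib3* at -1.80 and -1.67 (adjusted p = 3.92e-09 and 4.13e-07, edgeR). Without *Fmr1* B1, 24 of the 35 passed. *Fmr1* siRNA A raised 7 and lowered 5, with a median of 0.02, beside 10.0% and 13.6% of all genes. *Zfp598* siRNA A raised 0 and lowered 12 (median -0.13), beside 6.30% and 5.64% of all genes, and *Zfp598* siRNA B raised 4 and lowered 19 (median -0.41), beside 12.4% and 14.4%. The Scramble siRNAs differed from each other at 12 of the 35 (22.7% of all genes), 9 higher and 3 lower with Scramble B. Scramble B is the reference of both siRNA B comparisons. Compared directly, *Zfp598* siRNA B had 10 of the 35 higher and 10 lower than siRNA A (median -0.05), beside 35.3% of all genes in either direction. *Fmr1* siRNA B had 0 higher and 25 lower than siRNA A (median -0.52), beside 24.3% of all genes. The effects of *Fmr1* siRNAs B and A differed for 25 of the 35 (21.8% of all genes), each with the lower value for B, and for 20 without *Fmr1* B1. Of the *Fmr1* siRNAs, B alone moved *Slc7a1* and *Slc6a9* down and *Slc43a2* up past the threshold. *Slc6a9* also passed with *Zfp598* A, downward, and *Slc43a2* with *Zfp598* B, upward. With *Fmr1* B, *Slc38a1* (0.03), *Slc38a2* (-0.06) and *Slc7a6* (-0.13) did not pass. *Slc1a4* and *Slc1a5* were lower with both *Fmr1* siRNAs. A link between the response genes and the transporters was not tested. With both siRNAs pooled, 4 of the list fell in *Fmr1* KD (*Trib3*, *Gdf15*, *Ddit3* and *Cebpg*) and 3 in *Zfp598* KD (*Ddit3*, *Mthfd2* and *Iars1*), and 0 rose in either, beside 3.80% and 1.04% of all genes that fell. These counts were unsteady: without *Fmr1* B1, *Zfp598* A2 and *Zfp598* A3 (1 *Zfp598* A library left) they were 6 and 10, and with any 1 Scramble B library left out the *Zfp598* KD count was 0.

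**Figure D4:**
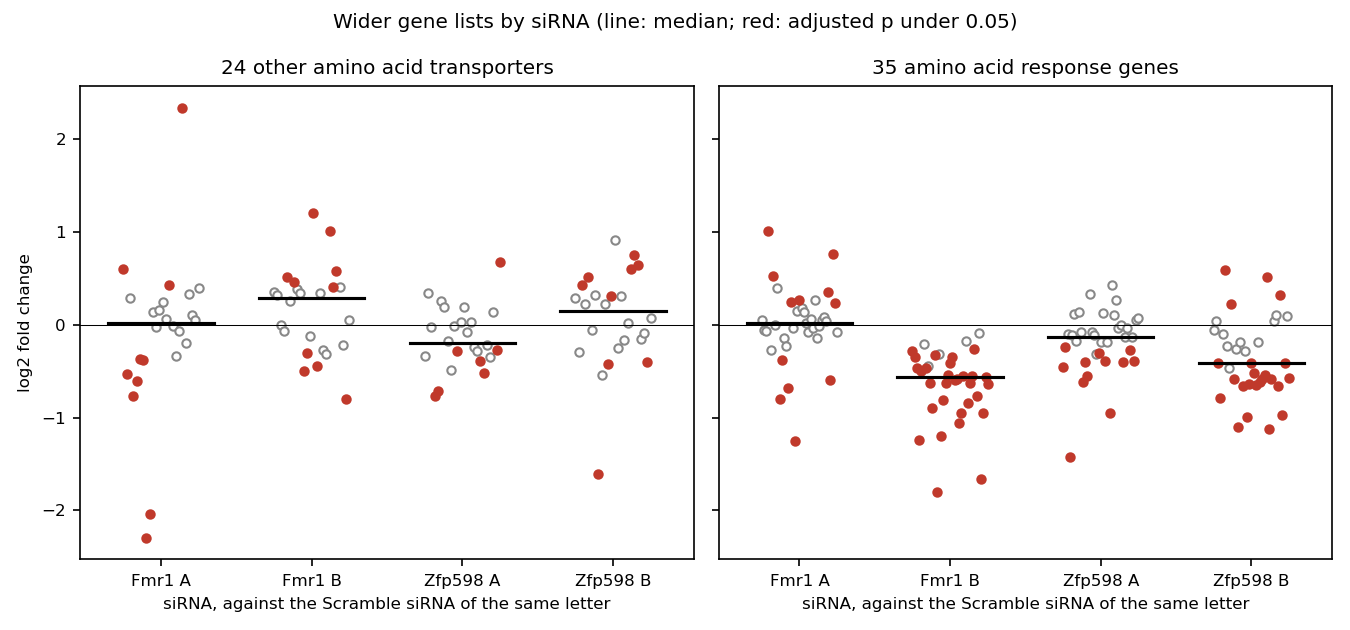
Log2 fold change of the 24 tested other amino acid transporters (left) and the 35 tested amino acid response genes (right) for each siRNA against the Scramble siRNA of the same letter. Each point is a gene, red where the adjusted p is under 0.05 (edgeR), and the line is the list's median. The response genes lie below 0 with *Fmr1* siRNA B (median -0.56) and around 0 with *Fmr1* siRNA A (median 0.02), and the isolated point near the top left is *Slc7a11* (2.34).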

How the data were processed

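The deposited values are whole-number counts of reads per gene for 18 libraries of rRNA-depleted RNA. To make them, the authors used TrimGalore for trimming, STAR for alignment (GRCm39) and featureCounts over exons, without normalizing or pooling the counts. The annotation release, the strand setting and the handling of reads that align to several places are not given in the sources used here. Symbols, coordinates and exon lengths came from GENCODE M39, which matched 54749 of 55414 identifiers. Counts were analysed with R 4.3.3, edgeR 4.0.16 (limma 3.58.1), and with DESeq2 1.42.0 as an alternative. Genes were kept by filterByExpr (minimum count 10, minimum total 15). Quasi-likelihood models with TMM scaling were fitted over all 17901 genes and 18 libraries, with 3 conditions (pooled comparisons) or 6 siRNA groups (all others), and p-values were adjusted by Benjamini-Hochberg over all tested genes with a threshold of 0.05. The scripts were tested on simulated counts.

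The labels give replicates but do not say what separates them, so p-values measure the spread between these libraries. Within each siRNA, all pairs of libraries differed beyond sampling noise (chi-square per degree of freedom at least 2.80). Counting intervals and limits cover counting error only. The 10 genes, both wider lists and the marker lists were chosen with earlier results of these data known. Genes named in the text were the 10, the siRNA targets, *Slc3a2*, *Slc7a5*, *Slc7a11* and *Slc43a3*, up to 4 genes per wider list and comparison with the largest changes among those past the threshold (mean of at least 10 counts), the 5 genes most like *Slc43a1*, and markers. *Slc38a4*, *Slc7a4* and *Slc6a7* fall outside this rule and were named after their values were seen. Of the 10 stem cell markers listed, 9 were found in the table. Promoter windows came from RefSeq on GRCm38.p6 and were used for letters only, with no coordinates moved between builds. Alternatives covered scaling, filters, blocks, a covariate, summed libraries and leaving out libraries.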

Additional observations from a re-analysis of the deposited data

Results flagged for a closer look

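Some gaps between the outermost library and its nearest neighbour were large for their group. Such gaps appeared in 4 of 29 gene and condition groups of 6 libraries. Each group joins both siRNAs of a condition, and in the flagged *Slc7a8* groups most libraries were at 0. The count of 4 can therefore not be compared with a chance rate, and the gaps are a description. *Slc7a6* stood at 157.1 CPM in *Fmr1* B2, with the next library at 142.5 CPM. *Slc1a4* stood at 286.2 CPM in *Zfp598* A3, with the next at 211 CPM. *Slc7a8* stood at 1.48 CPM in *Fmr1* B1 and at 0.150 CPM in *Zfp598* A1, where most other libraries were at 0. *Slc7a8* was removed by the filter on low counts, and its 22 counts in *Fmr1* B1 were above the 0 of every Scramble KD library.

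The effects of siRNAs B and A of a target differed past the threshold of edgeR's interaction test for 7 values. For *Fmr1* they were 0.48 for *Slc43a2*, -0.48 for *Slc7a1*, -0.57 for *Slc38a1*, -0.42 for *Slc38a2* and -1.03 for *Slc6a9* on the log2 scale, and 21.8% of all genes passed the same test. For *Zfp598* they were 1.04 for *Slc43a2* and 0.41 for *Slc38a1*, beside 21.9% of all genes. Each of these differences includes the difference between Scramble siRNAs B and A.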

How the results depend on the processing

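Leaving aside *Slc43a1* against Scramble, which chose the gene and is no test, 35 member values were called, and of their 501 refits 451 stayed past the threshold and none turned its direction. The counts that follow are of the 8 tested members other than *Slc43a1*. In *Zfp598* KD 0 passed in the main model, with DESeq2 and with the siRNA letter as a block. With the share of the unannotated feature as a covariate 3 passed (*Slc7a6*, *Slc1a4* and *Slc1a5*). Without *Fmr1* B1, *Zfp598* A2 and *Zfp598* A3 the count was 2. That alternative was chosen after seeing the data, and with 1 *Zfp598* A library left it assumes that this library varies like the other groups. In *Fmr1* KD 2 passed, against 0 with counts summed per siRNA, where only 2 values per condition remain. The covariate gave 5 in place of 2 for *Zfp598* siRNA A. Without those 3 libraries, 5 in place of 3 differed between the Scramble siRNAs, which keep all their libraries. Between the *Zfp598* siRNAs only 1 library of A is then left, so no count is given. The causes were not tested.

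With 1 library left out in turn, again without *Slc43a1*, the count stayed at 2 in *Fmr1* KD and was 0 to 1 in *Zfp598* KD. By siRNA it was 3 to 4 for *Fmr1* A, 4 to 5 for *Fmr1* B, 1 to 2 for *Zfp598* A and 2 to 3 for *Zfp598* B. Leaving out 1 library gave 1 to 3 between the Scramble, 3 to 4 between the *Fmr1* and 4 to 7 between the *Zfp598* siRNAs. For the differences between the *Fmr1* and *Zfp598* effects it gave 4 to 5 and 2 to 3. The difference of 0.48 for *Slc43a2* between the *Fmr1* effects passed in only 5 of 18 alternatives (adjusted p up to 0.156, edgeR).

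Deviations of libraries with the same replicate number had correlations of -0.34 to 0.29 (median 0.04), with 12 of 45 pairs over 0.1. For different numbers they were -0.36 to 0.50 (median -0.02), with 10 of 90 pairs over 0.1. Pairs over 0.1 were thus more frequent among the same numbers, though most correlations were weak. Whether libraries of the same number share a batch was not tested. The main model did not treat the numbers as pairs. With the replicate block the counts were 2 in *Fmr1* KD and 0 in *Zfp598* KD. They were 4 for *Fmr1* A, 5 for *Fmr1* B, 2 for *Zfp598* A and 3 for *Zfp598* B, all the same as without it. Between the *Fmr1* siRNAs the block added *Slc43a1*, and it moved no count of the other 8. Among the wider lists, the 1 transporter in *Fmr1* KD became 3 with DESeq2, 2 with the letter block, 2 without the 3 libraries and 0 with summed counts (1 to 3 with 1 library left out). The 4 response genes became 8, 7, 6 and 0 in the same order (up to 7 without Scramble A1). In *Zfp598* KD the 1 transporter, *Slc38a7*, was lost with no filter, the replicate block or summed counts, and without any 1 Scramble or *Zfp598* B library. The 3 response genes became 6 with DESeq2, 5 with the letter block, 1 with the replicate block, 0 with summed counts, 10 with the covariate and 10 without the 3 libraries (0 to 5 with 1 left out). For *Zfp598* A, 7 transporters became 3 without Scramble A2, Scramble A3 or *Zfp598* A2, and 12 response genes became 6 without Scramble A3 and 7 without *Zfp598* A2. For *Fmr1* A, 10 transporters became 6 without Scramble A1.

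At 8 to 56 counts per library, depth limits every value of *Slc43a1*.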
